A study of Mus musculus with 6 samples.

Results

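The plasminogen activator system was described here through 7 of the 52636 genes of the deposited table: the activators Plau and Plat, the receptor Plaur, and the serpins Serpine2, Serpinb2, Serpinf1 and Serpinf2. They were taken by gene symbol, without regard to their values, and each symbol had a single row. The data were RNA sequencing of tumor cells sorted from subcutaneous tumors of MC38, a mouse colon adenocarcinoma line. The control group was the M1E5 line with the genotype label Thy1.1. The other group was the MC-38 M1E5 line with the genotype label Zfx-KO-Thy1.2, in which the X-linked transcription factor gene Zfx had been targeted with CRISPR ribonucleoprotein complexes. Each group had 3 libraries from female mice of 6 to 10 weeks that received no further treatment, and the Zfx genotype and the Thy1 allele changed together. The mouse strain, the number of clones behind the targeted line, and whether each library is a mouse of its own are not stated in the labels. The p-values thus cover only library-to-library spread, and that spread may be technical. Replicate numbers follow the order of deposit and do not pair libraries of the groups. The control libraries held 42392848 to 42962578 reads and the libraries labelled Zfx-KO 37763096 to 65050909, as recovered from the table to within about 1 read.

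Plasminogen, made mainly by the liver, is cut to the protease plasmin by urokinase (Plau) or by tissue plasminogen activator (Plat). Urokinase works on the cell surface when bound to its receptor, Plaur, while tissue plasminogen activator is known best for dissolving fibrin. Serpins hold the system in check by trapping proteases in covalent complexes, and plasmin itself degrades fibrin and matrix proteins and activates growth factors and metalloproteinases. In tumors, the system is known for its part in invasion and matrix turnover.

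Promoters were held in the RefSeq table of build GRCm38.p6 for 5 of the 7 genes, Plaur, Serpine2, Serpinb2, Serpinf1 and Serpinf2. The 250 bases before the start are printed for the 3 of them with the largest called changes. They are Plaur at chr7:24462233-24462482 on the plus strand, Serpine2 at chr1:79858666-79858915 on the minus strand and the first of a pair of Serpinb2 starts at chr1:107511173-107511422 on the plus strand. Capitals mark matches, on either strand, to the motifs searched below.
Plaur promoter: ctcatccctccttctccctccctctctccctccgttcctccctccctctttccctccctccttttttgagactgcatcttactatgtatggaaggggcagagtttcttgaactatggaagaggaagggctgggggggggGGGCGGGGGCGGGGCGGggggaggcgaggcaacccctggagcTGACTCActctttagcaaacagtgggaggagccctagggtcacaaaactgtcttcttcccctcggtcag
Serpine2 promoter: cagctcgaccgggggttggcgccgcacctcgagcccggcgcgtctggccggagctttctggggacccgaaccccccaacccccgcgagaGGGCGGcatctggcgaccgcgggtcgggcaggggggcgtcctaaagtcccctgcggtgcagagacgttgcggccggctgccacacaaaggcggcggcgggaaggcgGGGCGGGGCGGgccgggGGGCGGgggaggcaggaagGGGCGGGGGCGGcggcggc
Serpinb2 promoter: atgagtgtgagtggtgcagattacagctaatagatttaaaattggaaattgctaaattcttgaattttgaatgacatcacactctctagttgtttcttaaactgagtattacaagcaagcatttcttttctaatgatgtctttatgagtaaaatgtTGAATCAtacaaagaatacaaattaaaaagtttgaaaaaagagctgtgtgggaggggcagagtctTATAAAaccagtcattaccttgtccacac

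The letters searched were AGGCCT, the core of the motif known for ZFX, its longer form AGGCCTNG, TGANTCA for AP-1, GGGCGG for the GC box, TATAAA for the TATA box and CACGTG for the E-box, and matches could overlap. The Serpine2 window held 6 GC boxes, the nearest beginning 13 bases before the RefSeq start. Its GC content was 78.8%, against a median of 52.4% over the 32851 windows of the same length. In the deposited coordinates Serpine2 runs to 79858696 on the minus strand, past that RefSeq start. The GC boxes beginning 13 and 19 bases before the start thus lie inside the deposited span. The Serpinf1 window also overlaps its deposited span, which runs to 75422701. The Plaur window held 3 GC boxes in a row and an AP-1 match, TGACTCA, beginning 69 bases before the start. The Serpinb2 window held an AP-1 match, TGAATCA, 94 bases before the start and a TATA box 29 bases before it. The windows of Serpinf1 and Serpinf2 held no match to these motifs, and neither form of the ZFX motif was in any of the member windows. Over all windows, AGGCCT was present in 8.70%, AGGCCTNG in 4.41%, TGANTCA in 6.75%, GGGCGG in 32.7%, TATAAA in 12.4% and CACGTG in 6.02%. A match is a stretch of letters and not a measured binding site.

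Zfx, the targeted gene, had higher values in libraries labelled Zfx-KO, at 6.31 ± 0.09 log2 CPM (reads scaled to library size with a small prior, SD, n = 3) against 5.67 ± 0.21 in the controls, with a limma adjusted p of 0.000473. Directions below therefore refer to the label. The 11 markers of colon epithelium were low in the controls and uneven in the other group, with 0 reads of Cdx2 in all libraries, 1 read of Epcam in the controls and 3 in the other group. They summed to 1.08 to 1.82 CPM in the controls, most of it Cdh1, and to 16.9 to 24.0 CPM in the other group, most of it Krt8. Of 6 tested, 3 were called higher: Krt8 with 5 control reads and 2571 in the other group, Lgr5 with 0 and 219, and Krt19 with 2 and 35. Markers of stromal cells were present and higher in the libraries labelled Zfx-KO. The 11 endothelial markers summed to 21.0 to 27.5 CPM in the controls and 114 to 141 CPM in the other group, with all 11 called higher. Pecam1 made up most of both sums, with means of 19.4 and 105 CPM. The 11 pericyte and smooth muscle markers, also all called higher, summed to 311 to 361 and 592 to 764 CPM. Most of the control sum was Cspg4 (mean 237 CPM) and Pdgfrb (97.4 CPM), which rose by 0.62 and 0.27 in log2 units. Most others had few control reads, such as 48 of Rgs5 and 0 of Abcc9, and the median log2 fold change of the list was 6.42. Of 11 fibroblast markers 8 were called higher and 2, Pdgfra and Pdpn, lower, with sums of 8427 to 10059 and 14482 to 17497 CPM. The control sum was mostly Col3a1 (mean 7716 CPM), which rose 1.23-fold, whereas Col1a1 rose 50.6-fold and Col1a2 392-fold. Thy1 is among the fibroblast markers called higher (log2 rise 1.16). The genotype labels differ in its allele, so its change cannot be told apart from that difference. The 12 macrophage and monocyte markers summed to 44.1 to 208 and 82.3 to 238 CPM, with 1 called higher, and 7 neutrophil and 9 lymphocyte markers to at most 1.91 and 1.01 CPM. Of the markers tested, 50% were called for colon epithelium, 90.9% for fibroblasts and 8.33% for macrophages and monocytes. For endothelial cells and for pericytes and smooth muscle it was 100%. Among all genes tested 44.4% were called, 24.9% higher and 19.5% lower, so the share for colon epithelium was near that of all genes. Krt8, Krt19, Lgr5, Tie1, Cldn5, Erg, Kcnj8 and Abcc9 lacked reads in some or all controls. They passed the filter on low values only through the libraries labelled Zfx-KO, which favored rises. In these bulk libraries fewer cells of a type and less RNA per cell cannot be told apart.

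Plau, Plaur, Serpine2, Serpinb2 and Serpinf1 were higher under the Zfx-KO label, 5 of the 7 genes, and 0 were lower. Plat and Serpinf2 did not pass the test. The call was a limma adjusted p under 0.05 over 20094 genes tested, and all 7 passed the filter on low values. Serpinb2 lacked reads in a control and passed only through the libraries labelled Zfx-KO, which favored a rise. Among all genes tested 24.9% were called higher and 19.5% lower, or 44.4% in either direction, so calls were common in this comparison. Groups were fully separate for the same 5 genes, as they were for 54.1% of all genes tested. The median log2 fold change was 0.47 over the 7 genes and 0.09 over all genes tested. With libraries scaled to equal medians, which lowers every log2 fold change by 0.21, the number called higher was 3, since Plaur and Serpinf1 were lost. It was also 3 without replicate 1 of the group labelled Zfx-KO, again because these were lost.

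**Figure D1:**
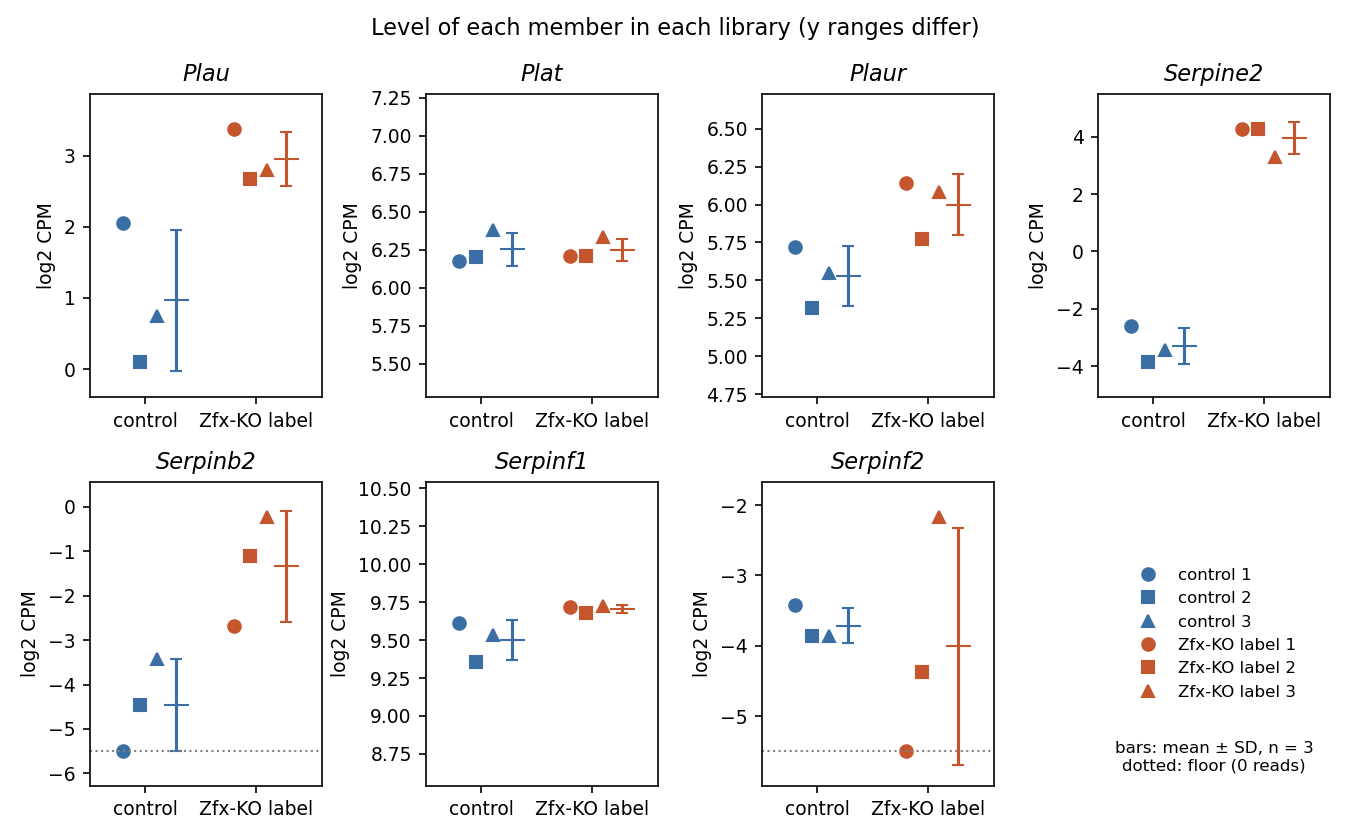
Level in log2 CPM (y axis, range set for each gene) of each of the 7 genes in the 3 control and 3 Zfx-KO label libraries (x axis), with symbols for replicates, bars for mean ± SD, and a dotted line at the floor of 0 reads. Serpine2 stands at -2.61 or lower in the controls and at 3.31 or higher in the other group, while Plat stands at 6.18 to 6.38 in all 6 libraries.

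Plau, which encodes urokinase, lies on chromosome 14 from 20836660 to 20843385 in GRCm38. Control replicates 1 to 3 had 174, 45 and 71 reads of it, and replicates 1 to 3 of the libraries labelled Zfx-KO had 392, 242 and 449. As log2 CPM the controls were at 2.05, 0.10 and 0.75 and the other group at 3.38, 2.67 and 2.79. The groups did not overlap, and control replicate 1 stood closest to the other group. The mean log2 level rose by 1.98, or 3.95-fold (95% interval 1.07 to 2.90, SE 0.41, adjusted p = 0.00284 by limma). By exact permutation, two-sided, p was 0.1, which is the lowest that groups of 3 can reach, and the same held for Plaur, Serpine2, Serpinb2 and Serpinf1.

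Plat, the tissue plasminogen activator gene on chromosome 8 from 22757747 to 22782844, stood at nearly the same level in both groups. Controls had log2 CPM of 6.18, 6.20 and 6.38, and libraries labelled Zfx-KO had 6.21, 6.21 and 6.33. The values overlapped fully, and replicate 3 was the highest library of each group. The difference was -0.0033 in log2 units (SE 0.07, adjusted p = 0.975 by limma), with a 95% interval of -0.16 to 0.15. With equal medians it was -0.22, also short of the threshold (adjusted p = 0.0515), and its sign changed under other alternatives.

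The balance of the activators per length did not overlap between the groups. In RPKM, which scales reads to exon length and library size, Plat was 16.4, 65.2 and 46.4 times Plau in control replicates 1 to 3. For libraries labelled Zfx-KO this ratio was 6.61, 10.8 and 10.8. Plau made up 1.51% to 5.76% of the summed RPKM of the activators in the controls and 8.45% to 13.1% in the other group. Plat remained the more abundant activator transcript in all 6 libraries.

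Plaur encodes the urokinase receptor, a protein anchored in the membrane by a lipid, and lies on chromosome 7 from 24462484 to 24475967, with the AP-1 and GC box letters shown above just before its start. The 3 controls stood at 5.72, 5.32 and 5.55 log2 CPM, and the libraries labelled Zfx-KO at 6.14, 5.77 and 6.09. The groups were separated by a narrow gap, between control replicate 1 at 5.72 and replicate 2 of the other group at 5.77. The level rose 1.38-fold, by 0.47 in log2 units (SE 0.12, adjusted p = 0.00821 by limma). The call was lost with equal medians, where the difference was 0.26 (adjusted p = 0.119), and without replicate 1 of the group labelled Zfx-KO, where it was 0.40 (0.0505).

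Plau and Plaur ranked the libraries alike, and macrophage markers ranked them in the same way. Within each group both genes were highest in replicate 1, next in replicate 3 and lowest in replicate 2. The summed macrophage and monocyte markers were 208, 44.1 and 96.4 CPM in control replicates 1 to 3, against 238, 82.3 and 107 CPM for the label Zfx-KO. All 12 markers tested, such as Adgre1 and C1qa, had this order in both groups, as did 5.75% of all genes tested. Between groups the marker sums overlapped, with Lyz2 the marker called higher, by 1.07 in log2 units (limma adjusted p = 0.0366). Without the first library of both groups, an alternative chosen after seeing the data, the difference was 2.31 for Plau (limma adjusted p = 0.00123) and 0.49 for Plaur (0.0348). The marker sums left were then 44.1 and 96.4 CPM in the controls and 82.3 and 107 CPM in the other group. Leaving out these libraries thus did not level the markers. The part of these cells in the levels of Plau and Plaur was not tested.

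**Figure D2:**
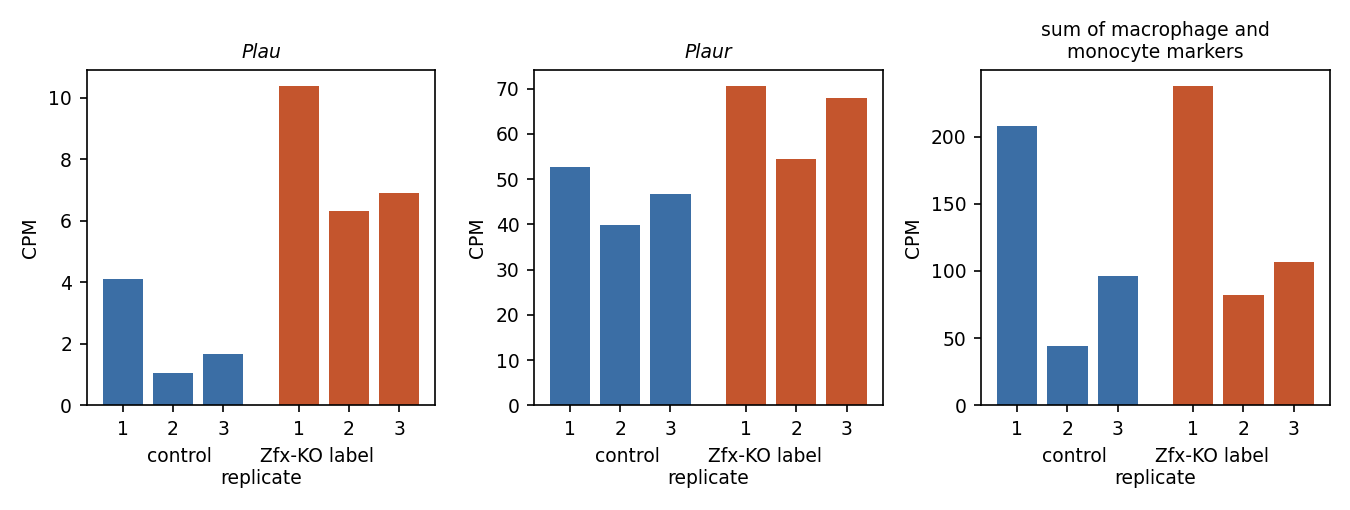
Linear CPM (y axes, from 0) of Plau, of Plaur and of the summed macrophage and monocyte markers in each library (x axis, bars in blue for control and orange for Zfx-KO label replicates 1 to 3). All 3 panels have replicate 1 highest and replicate 2 lowest within each group, and the marker sum of control replicate 1, 208 CPM, exceeds those of replicates 2 and 3 of the other group.

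Serpine2 showed the largest change of the 7 genes. It encodes protease nexin-1, a secreted serpin that inhibits thrombin, urokinase, tissue plasminogen activator and plasmin, and lies on chromosome 1 from 79794197 to 79858696. Control replicates 1 to 3 had 6, 2 and 3 reads, whereas the libraries labelled Zfx-KO had 730, 746 and 642. In CPM these were 0.142, 0.0466 and 0.0702 against 19.3, 19.5 and 9.87. A count of 3 reads is worth 0.0698 to 0.0708 CPM in the controls, so their level rests on few reads, and replicate 3 was the lowest of the other group. The fitted log2 rise was 7.26 (SE 0.37, adjusted p = 3.15e-07 by limma), and 0.284% of all genes tested had a larger rise. The ratio of pooled reads, scaled to depth, was 175, with a 95% exact interval of 97.5 to 351 that covers counting error only. With 4 times the prior the log2 difference was 6.51. The pericyte and smooth muscle markers were likewise lowest in replicate 3 of the libraries labelled Zfx-KO, at 592 CPM against 764 and 763, while endothelial markers were 114, 141 and 140 CPM and fibroblast markers 14482, 15361 and 17497 CPM. Their part in the level of Serpine2 was not tested.

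Serpinb2 encodes plasminogen activator inhibitor type 2, a largely intracellular serpin that inhibits urokinase and is known from monocytes and stressed epithelium. It lies on chromosome 1 from 107511423 to 107525598, among other Serpinb genes. The controls had 0, 1 and 3 reads of it, and the libraries labelled Zfx-KO had 5, 17 and 54. Every library of the second group was above every control, yet the levels stayed low, at 0.132, 0.445 and 0.830 CPM, and spread widely. The fitted log2 rise was 3.12 (SE 0.72, adjusted p = 0.00548 by limma), and the ratio of pooled reads was 17.3 with a 95% exact interval of 6.47 to 64.9. That interval covers counting error only, and replicate 3 of the group labelled Zfx-KO held most of the reads. The fitted size depended on the prior, with 4.02 and 2.03 at 0.25 and 4 times the prior, and was 3.80 without replicate 1 of the group labelled Zfx-KO. Serpinb10, whose span overlaps that of Serpinb2 in GENCODE M21 but not in the coordinates of the deposited table, had 1 read in total. Of the flanking genes, Serpinb7 had too few reads to test, and Serpinb8 stood at 1.27 ± 0.40 log2 CPM in the controls and 0.77 ± 0.25 in the other group (SD, n = 3, limma adjusted p = 0.12). Serpinb8 was called lower with equal medians (-0.71, adjusted p = 0.0315), with quantile normalization (-0.95, 0.00835) and without control replicate 2 (-0.73, 0.0224).

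Serpinf1 encodes pigment epithelium-derived factor, a secreted serpin that does not inhibit proteases and is known for restraining blood vessel growth. It lies on chromosome 11 from 75409769 to 75422701 and was the most abundant of the 7 transcripts. Control levels were 9.61, 9.36 and 9.53 log2 CPM, and those of the libraries labelled Zfx-KO were 9.72, 9.68 and 9.72. The groups did not overlap, with control replicate 1 just below the other group. The level rose 1.15-fold, by 0.20 in log2 units (SE 0.07, adjusted p = 0.0424 by limma), about the size of the shift between library medians. With equal medians it was -0.01 (adjusted p = 0.934), with no filter the adjusted p was 0.0546, and leaving out a single library ended the call in 5 of 6 cases.

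Serpinf2 encodes alpha-2-antiplasmin, the main plasma inhibitor of plasmin, which is made in the liver. It lies beside Serpinf1 on chromosome 11, from 75431732 to 75439501. Its reads numbered 3, 2 and 2 for the controls and 0, 1 and 13 for the libraries labelled Zfx-KO. Replicate 3 of the second group held nearly all of its reads, and the groups overlapped. The log2 difference was -0.29 (SE 0.79, limma adjusted p = 0.798), while the ratio of pooled reads was 1.82 with a 95% exact interval of 0.686 to 5.32, so no direction can be given. The exact interval covers counting error only. Between these neighbours lies the predicted gene Gm12337, with a log2 difference of 0.05 (adjusted p = 0.957). On the far side of Serpinf2, the neighbour Wdr81 rose by 0.31 (limma adjusted p = 0.00395; 0.10 and adjusted p = 0.326 with equal medians), and on the far side of Serpinf1, Smyd4 had a difference of -0.23 (adjusted p = 0.0844). Smyd4 was called lower with equal medians (-0.45, adjusted p = 0.00312), with quantile normalization (-0.32, 0.0249) and without control replicate 2 (-0.30, 0.0412).

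The other flanking genes varied. Beside Plaur, the adhesion molecule Cadm4 had a log2 rise of 1.82 (SE 0.30, adjusted p = 0.000713 by limma), from 32 control reads to 129 in the other group. On the other side of Plaur, Irgc1 had 0 and 1 reads, and Gm5529 beside Serpine2 had 1 and 1, too few to test. Beside Serpine2, the mitochondrial ribosomal protein gene Mrpl44 had a log2 difference of -0.03 (adjusted p = 0.754; -0.24 and 0.0121 with equal medians), and beside Plat the kinase gene Ikbkb and the adaptor gene Ap3m2 had 0.20 and 0.19 (adjusted p = 0.0266 and 0.0807). Vcl, the vinculin gene beyond Plau, rose by 0.30 (adjusted p = 0.0068), a call lost with equal medians (0.09, adjusted p = 0.386). The call for Ikbkb was lost with equal medians (-0.02) and in 4 of the 6 fits that left out a library, those without control replicates 1 and 3 and those without replicates 2 and 3 of the other group. Without control replicate 2, Ap3m2 was called higher (0.24, adjusted p = 0.0441). The predicted gene AC121599.1 beside Plau had -0.37 (adjusted p = 0.433), and -1.08 (0.0243) with quantile normalization.

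Per length, the order of the 7 transcripts changed in its lower part. In the controls Serpinf1 stood at 375 ± 33.4 RPKM (SD, n = 3), Plaur at 30.9 ± 4.22 and Plat at 30.3 ± 2.34, and the last pair did not differ beyond their spread. Plau followed at 0.970 ± 0.690 RPKM, and Serpine2, Serpinf2 and Serpinb2 were at 0.0390, 0.0246 and 0.0151 RPKM, within their spread of each other. Under the Zfx-KO label Serpinf1 was at 431 ± 7.53, Plaur at 42.7 ± 5.69 and Plat at 30.2 ± 1.53 RPKM. Serpine2, at 7.35 ± 2.50 RPKM, then stood above Plau, at 3.36 ± 0.936. The ratio of Serpine2 to Plau was 0.0365, 0.0471 and 0.0448 in control replicates 1 to 3 and 1.97, 3.27 and 1.52 in the other group, so the order of these genes was reversed in all 3 libraries. Serpinf1 nevertheless made up 97.9% to 98.9% of the summed RPKM of the 4 serpins in the libraries labelled Zfx-KO.

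**Figure D3:**
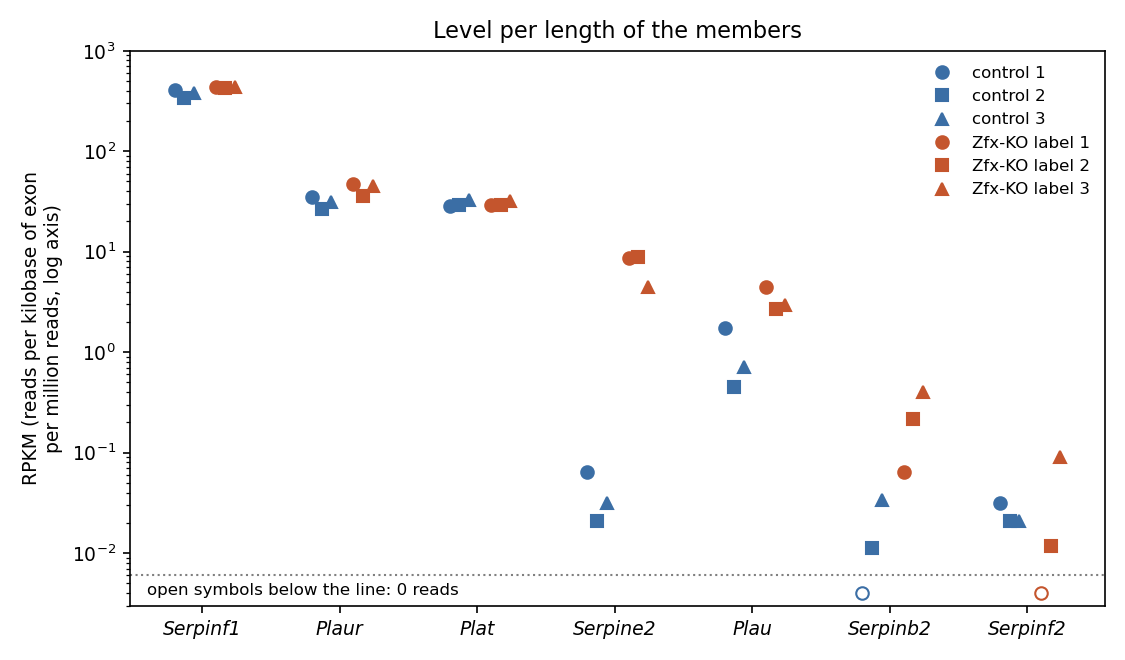
Level per length in RPKM (y axis, log scale) of the 7 genes (x axis, ordered by their mean in the Zfx-KO label group) in each library, with open symbols below the dotted line for 0 reads. Serpine2 lies below Plau in the 3 controls and above it in the 3 libraries labelled Zfx-KO, and Plaur and Plat lie together in the controls at about 30.9 and 30.3 RPKM.

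The genes with the most similar pattern were found by the Euclidean distance over the 6 libraries after centring each gene on its control mean. For Plau they were Slc7a2, a cationic amino acid transporter gene, and Selenop, the selenoprotein P gene, at distances of 0.39 and 0.43 log2 units, with log2 differences of 2.11 and 2.04. For Plaur they were Bckdha, of branched-chain amino acid breakdown, at 0.03 and the TNF receptor gene Tnfrsf1b at 0.10. For Serpine2 they were the collagen gene Col15a1 and the microfibril gene Mfap2, at 0.80 and 0.99. For Serpinb2 they were Dmkn and Sult6b1, at 0.91 and 1.00, both with 1 control read. For Serpinf1 they were Rbfa and Anxa2, both at 0.06.

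Plasminogen itself had 1 read in the 6 libraries. Of 11 genes for plasminogen, its surface receptors and other proteases that cut or activate the system, 8 were tested, 3 rose and 0 fell, or 37.5% called beside 44.4% of all genes, with a median log2 fold change of 0.17. The read of Plg was in a control, and 0 reads in each library labelled Zfx-KO allow at most 0.0461 to 0.0794 CPM. The plasminogen receptor genes Plgrkt and S100a10 stood at log2 differences of 0.16 and -0.01 (limma adjusted p = 0.0967 and 0.874), and Anxa2, which with S100a10 forms a receptor for plasminogen and tissue plasminogen activator, at 0.19 (0.0563; called with limma voom, 0.0254). Ctsl, the cathepsin L gene, had a log2 rise of 0.38 (SE 0.07, adjusted p = 0.00144 by limma), and Eno1, an enolase that also binds plasminogen at the surface, of 0.21 (adjusted p = 0.0411). With equal medians these values were 0.16 (adjusted p = 0.165) and -0.0019 (0.989), and the list then had 1 higher and 1 lower. Ctsl was also lost with quantile normalization (0.13, 0.224). Eno1 has pseudogene copies and its values are uncertain. Its call was also lost with no filter and in 4 of the 6 fits that left out a library, those without control replicates 2 and 3 and those without replicates 1 and 3 of the other group. Hpn, the protease hepsin, was the third riser and had 3 and 21 reads in the groups. It lacked reads in a control and passed the filter on low values only through the libraries labelled Zfx-KO.

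Other inhibitors that were tested all rose, but the list was short and the filter on low values favored rises. Of 6 genes 3 were tested and 3 rose, or 100% called beside 44.4% of all genes. The median was 6.08, the same with genes at 0 reads set to their bound. Tfpi2 and A2m passed the filter only through the libraries labelled Zfx-KO, so a rise was the only call open to them. Serpini1, neuroserpin, a known inhibitor of tissue plasminogen activator in brain, went from -0.45, -0.18 and -0.29 log2 CPM in the controls to 1.42, 1.17 and 1.36, a log2 rise of 1.62 (SE 0.21, adjusted p = 0.000124 by limma). Tfpi2, a Kunitz-type inhibitor of plasmin and other proteases found in matrix, had 0 control reads and 297 reads in the other group, at least 89.9-fold higher when the controls are given 3 reads as a group. A2m, the broad protease inhibitor alpha-2-macroglobulin, had 1 control read and 261 reads in the other group, a ratio of 237 with a 95% exact interval of 42.2 to 9397 that covers counting error only. Pzp, Serpina5 and Cpb2 had 2, 1 and 0 reads in the controls and 0 in the other group.

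Receptors that partner with or clear the urokinase receptor complex were called in both directions at a share near that of all genes. Of 15 genes tested 4 rose and 4 fell, together 53.3% beside 44.4% of all genes, with a median of 0.15. Lrp1, the endocytic receptor that removes protease and serpin complexes, went from 7.85 ± 0.03 to 9.01 ± 0.04 log2 CPM (SD, n = 3), a log2 rise of 1.16 (SE 0.05, adjusted p = 1.79e-07 by limma). Mrc2, the collagen receptor that associates with the urokinase receptor, rose by 0.73 (SE 0.07, adjusted p = 1.43e-05). The integrin subunit gene Itgb3 had 18 control reads and 744 reads in the other group and rose by 5.05 (SE 0.24), whereas Itga3 fell by 0.76 (SE 0.07, adjusted p = 1.66e-05).

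Substrates were split too. Of 12 genes tested 6 rose and 5 fell, together 91.7% beside 44.4% of all genes, with a median of 0.26. Among the risers Mmp3 lacked reads in a control and passed the filter on low values only through the libraries labelled Zfx-KO. The metalloproteinase genes Mmp3 and Mmp13, whose proenzymes plasmin can activate, rose by 8.63 (SE 0.47) and 5.96 (SE 0.49), from 4 and 22 control reads to 2621 and 1421 reads. The other metalloproteinase genes of the list differed. Mmp9 fell by 1.23 (SE 0.19, limma adjusted p = 0.000485), Mmp2 rose by 0.58 (SE 0.11), and Mmp14 was not called (-0.05, adjusted p = 0.662). Fn1, the most abundant gene of the list, rose by 1.35 (SE 0.11). Pdgfc, a growth factor that tissue plasminogen activator cuts to its active form, fell by 2.13 (SE 0.09, limma adjusted p = 1.32e-07), and Hgf, a precursor that urokinase can process, fell by 1.32 (SE 0.06, adjusted p = 2.16e-07). The fibrinogen genes Fga, Fgb and Fgg had 3 or fewer reads in each group.

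In the list of cell surface coagulation genes 6 of 10 tested rose and 2 fell, together 80.0% beside 44.4% of all genes, with a median of 1.08. Of the risers, F5 and F2r lacked reads in some or all controls. They passed the filter on low values only through the libraries labelled Zfx-KO, which favored rises. The thrombin receptor gene F2r had 4 control reads and 891 reads in the other group and had a log2 rise of 7.14 (SE 0.47, adjusted p = 1.49e-06 by limma). F2rl1, a related protease-activated receptor, rose by 5.40 (SE 0.47), and Thbd, the thrombin cofactor thrombomodulin, by 6.29 (SE 0.43). Procr, the protein C receptor, rose from 4.20 ± 0.08 to 5.49 ± 0.10 log2 CPM (SD, n = 3). The 2 that fell were F3, by 0.58 (SE 0.10, limma adjusted p = 0.000666), and Pros1, by 0.61 (SE 0.07, adjusted p = 9.23e-05). F2r, Thbd and Procr are also known from endothelial cells, whose markers were higher in the same libraries, and the part of these cells was not tested.

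Among the other members of the serpin family, 58 by symbol, 22 were tested, 8 rose and 1 fell, with a median of 0.32. Serpini1, given above among the other inhibitors, is also counted among these 8. The 9 called are 40.9% of those tested, near the 44.4% of all genes. Serping1, the complement C1 inhibitor, rose by 9.12 (SE 0.34), and Serpina3n, a secreted inhibitor of granzyme B and other proteases in mouse, went from -0.39 ± 0.81 to 5.11 ± 0.26 log2 CPM (SD, n = 3), a log2 rise of 5.50 (SE 0.33, adjusted p = 8.65e-07 by limma). Serpina3c had 0 control reads and 27, 3 and 10 reads in replicates 1 to 3 of the other group, so 1 library held most of them. It passed the filter on low values only through the libraries labelled Zfx-KO, so a rise was the only call open to it. Genes of the Serpina3 cluster are close copies, so their values are uncertain where reads are shared. With equal medians 5 rose and 4 fell, and with quantile normalization the counts were the same.

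**Figure D4:**
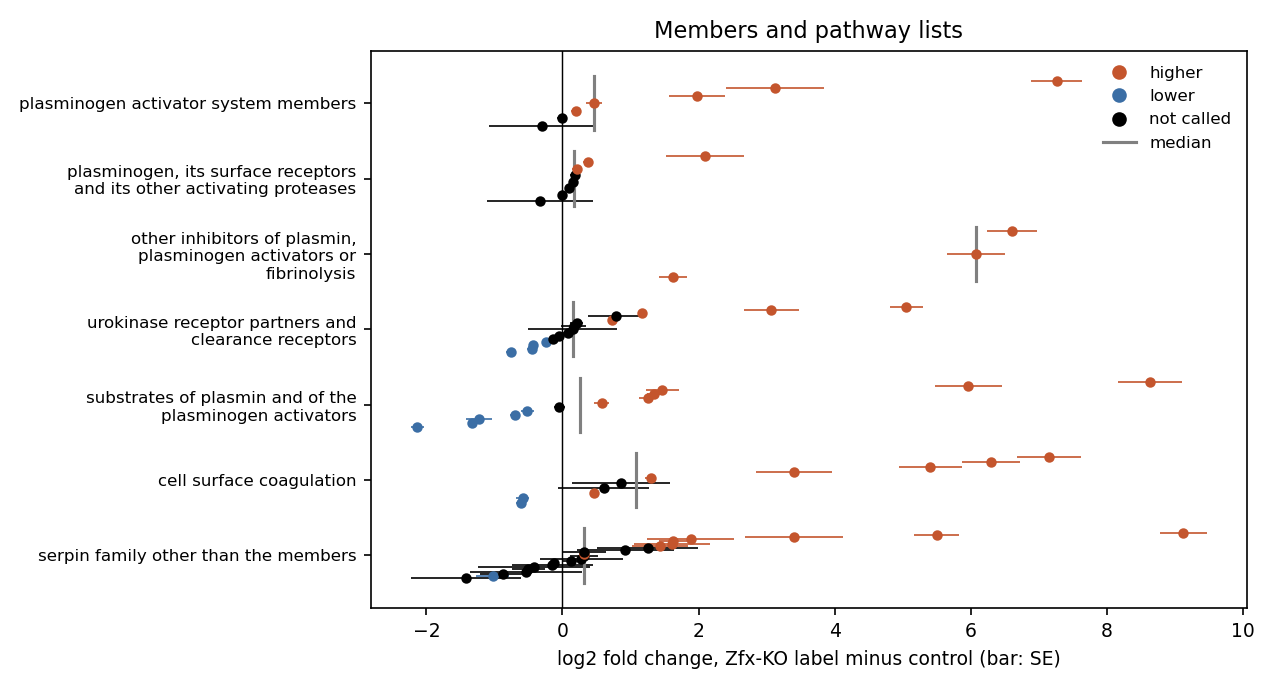
Log2 fold change of the libraries labelled Zfx-KO against the controls (x axis, bars for SE) for the 7 genes and for the tested genes of each list (y axis), in orange where higher, blue where lower and black where not called, with a grey line at each list's median. Rises reach 8.63 among the substrates and 9.12 in the serpin family, and falls reach -2.13, the value of Pdgfc.

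The calls for Plau, Serpine2 and Serpinb2 were kept in all alternatives in which they were tested, while those for Plaur and Serpinf1 depended on the scaling and on single libraries. Plau ranged from 1.55 to 2.52 over the fits that left out a library, Serpine2 from 6.98 to 7.60 and Serpinb2 from 2.56 to 3.80. Plat and Serpinf2 passed in none of the alternatives run.

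**Figure D5:**
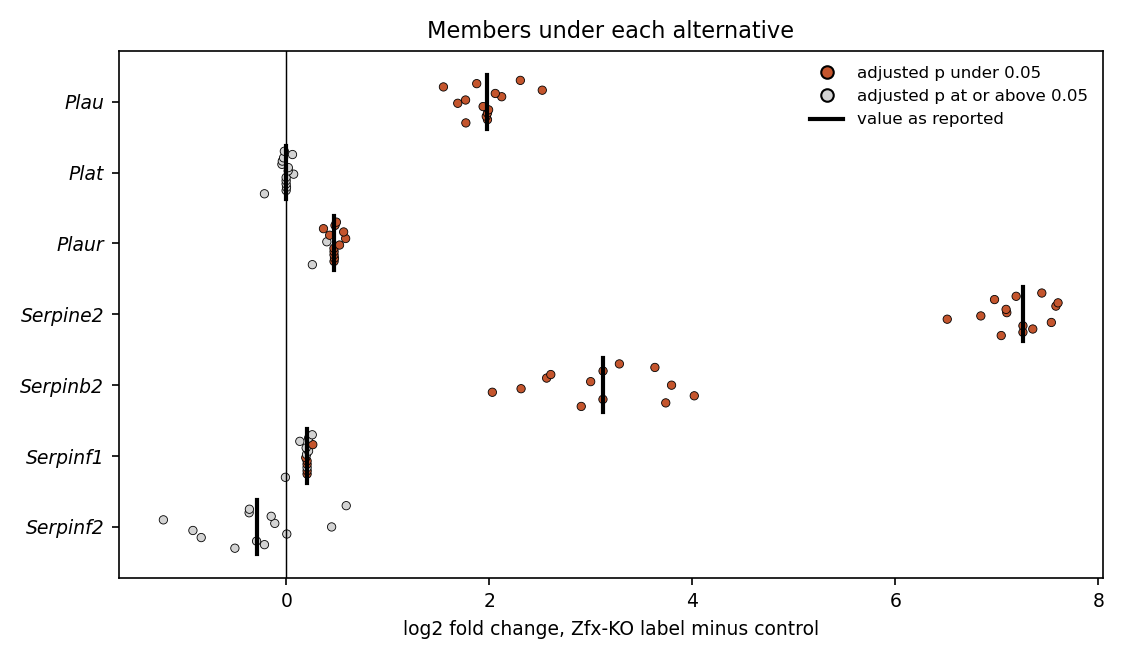
Log2 fold change of each of the 7 genes (y axis) as reported (black line) and under each alternative fit (points), in orange where the limma adjusted p was under 0.05 and grey where it was not. All points of Plau, Serpine2 and Serpinb2 are orange, and those of Plat lie around 0, with -0.22 for equal medians.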

How the data were processed

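Per the labels' protocols, tumors were digested with collagenase, dispase and DNase for 45 minutes, and RNA of sorted tumor cells was sequenced from a single end with reads of 50 bases. Both GRCh38 and mm10 appear in the submitters' processing notes, with no role. Aligner, counter and strand were not given in the sources used. The table the authors deposited holds normalized log2 values of 52636 genes. They share a floor of -5.49, and taken as log2 CPM with a prior of 1 read on average they give whole reads within 0.05 for 100% of values under 2000 reads, so reads and depth were recovered. Gapdh, which all cells express, had a control mean of only -2.21, and reads that match several copies appear to be missing. Exon lengths came from the deposited table and chromosomes from GENCODE M21 (GRCm38), which held 99.6% of the identifiers.

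Genes were kept where 3 or more libraries exceeded the floor and the mean exceeded it by 1 log2 unit or more, and compared with limma 3.58.1 in R 4.3.3 (intensity trend, two-sided, Benjamini-Hochberg adjustment over 20094 genes). The script was tested on simulated data. Tables and plots used scipy 1.17.1, matplotlib 3.10.9, numpy 2.4.6 and pandas 2.3.3 under Python 3.11.15. Replicate pairs had a chi-square per gene of 13.2 to 25.4, beyond the noise of sampling. The members and lists were chosen with earlier results of these data known, so list counts are descriptions without a set test. Genes named were the members, up to 4 genes of each list with the smallest p that passed and a mean at least 3 log2 units above the floor in the higher group, the 2 genes nearest in pattern to each called member, the flanking genes and Zfx. Further genes named for their role, among them Plg, Plgrkt, S100a10, Anxa2, Hpn, Pzp, Serpina5, Cpb2 and the fibrinogen genes, were chosen after their values were seen. A further gene of these lists, set aside after its values were seen, is not reported here and is in none of the list counts.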

Additional observations from a re-analysis of the deposited data

How the results depend on the processing

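Of 96 values of the 7 genes under alternatives, 78 kept their direction and their side of the threshold, 9 lost the call and 9 changed sign. Among the other named genes 528 of 570 did so. With equal medians 3224 of all genes were higher and 6357 lower, against 5003 and 3924 as reported, and 3 of the 7 genes were higher. In that setting the plasminogen receptor list had 1 higher and 1 lower, the serpin family 5 and 4, Plaur stood at 0.26 and Serpinf1 at -0.010, while Anxa2 stood at -0.025, Rbfa at -0.019, Ap3m2 at -0.024, Gm12337 at -0.17, Ikbkb at -0.017 and Eno1 at -0.0019. With quantile normalization the serpin family had 5 higher and 4 lower, Plat stood at 0.071, Gm12337 at -0.71 and Mrpl44 at 0.0048. The stricter filter left 5 of the serpin family higher, and with no filter 2 were lower and the 0.20 of Serpinf1 missed the threshold. With limma voom on the recovered reads Plat stood at 0.000204 and Gm12337 at -0.032, and with 4 times the prior Serpinf2 stood at 0.0033 and Gm12337 at -0.0046. Without the first library of both groups, added after seeing the data, 1 gene of the plasminogen receptor list was higher, Serpinf1 had 0.25 without a call, Serpinf2 0.59 and Gm12337 -0.0048. Leaving out each library gave 3 to 5 of the 7 genes higher, 5 to 8 higher and 1 to 2 lower in the serpin family, and log2 fold changes of -0.045 to 0.059 for Plat, 0.36 to 0.58 for Plaur, 0.13 to 0.26 for Serpinf1, -1.21 to 0.44 for Serpinf2 and -0.59 to 0.37 for Gm12337. The causes were not tested. No paired analysis was possible because the labels give no replicate numbers, and those used here follow the order of deposit. Depth limits Serpinb2, Serpinf2 and the control level of Serpine2, which rest on few reads.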
